A study of Mus musculus with 4 samples.

Results

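The 9 erythroid genes described here are Gata1, Klf1, Gfi1b, Epor, Tfrc, Alas2, Slc4a1, Car1 and Car2, out of 43629 gene identifiers counted in each of 4 mouse RNA-seq libraries. They were chosen by symbol for their known roles in red cell formation, and all 9 were found. The cells were CD117-enriched hematopoietic stem and progenitor cells (HSPCs) of C57Bl/6 mice, and every library, controls included, came from mice with both Chaf1b alleles floxed. Cells were spinfected with the retroviral vector MIGR1 carrying Cre, which excises floxed DNA (Chaf1b-deleted, n = 2), or with empty MIGR1 (MIGR1 control, n = 2). The vector's eGFP-positive cells were sorted 48 h later, so deletion was acute and was set by viral delivery in culture. The serum-free medium (StemSpan SFEMII with LDL) contained 50 ng/mL SCF, 10 ng/mL IL-3 and IL-6, for which the sample labels give 20 ng/mL and the methods of the study another concentration. Erythropoietin, the hormone that sustains late erythroid cells, is not among the additives listed. The comparison asks whether loss of CHAF1B, a subunit of the histone chaperone CAF-1, went with other levels of erythroid transcripts.

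Red cells arise from megakaryocyte-erythroid progenitors. GATA1 is the master activator of the programme, KLF1 is its main partner at globin and membrane genes, and GFI1B is a repressor needed in both the erythroid and megakaryocytic lineages. Signals from the erythropoietin receptor (Epor) keep committed cells alive, the transferrin receptor (Tfrc) imports iron, ALAS2 starts haem synthesis, SLC4A1 is the band 3 anion exchanger of the red cell membrane, and CAR1 and CAR2 are carbonic anhydrases abundant in red cells. Tfrc is also used by other dividing cells, and Car2 and Gfi1b by other blood lineages, whereas Alas2 and Slc4a1 are characteristic of hemoglobin-producing erythroblasts.

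Counts on genes totalled 22736626 and 25409926 in MIGR1 control replicates 1 and 2, and 23539015 and 18468637 in Chaf1b-deleted replicates 1 and 2. Levels are given as CPM, the count scaled to the total counted on genes in that library. The targeted gene followed the labels: Chaf1b had 80.3 and 57.9 CPM in the controls and 16.1 and 17.9 CPM after deletion. Both deleted libraries lay far below both controls, with a log2 difference of -2.01 and a standard error of 0.25. The adjusted p was 0.0330 in edgeR's quasi-likelihood test, and here and below p-values are adjusted over all genes tested by Benjamini-Hochberg. Over the alternatives it ran from 1.7e-09 to 0.0651, the last with at least 10 counts asked for in every library. The call was lost there, and also with the replicate number fitted as a block (adjusted p = 0.0592 in edgeR's quasi-likelihood test). Chaf1a, which encodes the partner subunit, had 120 and 84.9 CPM in the controls and 80.4 and 68.4 CPM after deletion. Chaf1b-deleted replicate 1 stood apart in other ways. It alone had many counts of Xist (7905, against at most 33) and few over 5 Y-linked genes (3, against at least 5805). The 28 listed interferon-stimulated genes had a median log2 difference from the control mean of 3.46 in that library and of 0.14 in Chaf1b-deleted replicate 2. MIGR1 control replicate 1 was unusual in having a count on 39.7% of 1036 olfactory receptor genes, which blood cells do not normally transcribe, against 4.05% to 11.8% in the other libraries. The labels do not say whether replicates came from separate animals. By Xist and Y-linked counts the deleted libraries came from cells of different sex, so the spread between them is not only technical. The p-values measure the spread between these libraries, which may be technical for the controls.

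None of the 9 genes passed the test of at least 1.5-fold and adjusted p under 0.05 in edgeR's quasi-likelihood test, in either direction. Among all 16500 genes tested, 0.370% were called higher and 0.00606% lower after deletion. The other tests also called 0 of the 9, where edgeR's exact test called 3.48% of all genes, its likelihood ratio test 3.78% and DESeq2 3.05%. Without adjustment, 2 of the 9 genes, Tfrc and Car1, had p under 0.05 and were lower, against 3.10% of all genes, and 0 were higher, against 9.15%. All 9 genes passed the low-count filter, Slc4a1 only through the deleted libraries. Their log2 differences ran from -0.81 for Klf1 to 1.48 for Slc4a1, with 7 below 0 and 2 above, and a median of -0.38 against -0.03 over all genes tested. Both deleted libraries lay below both controls for 2 of the 9 genes, against 21.4% of all genes. They lay above them for Slc4a1, against 22.3% of all genes, a position that the filter favoured. Neither share was far above that of the whole transcriptome. In bulk RNA, fewer erythroid cells and less RNA per erythroid cell cannot be told apart.

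**Figure D1:**
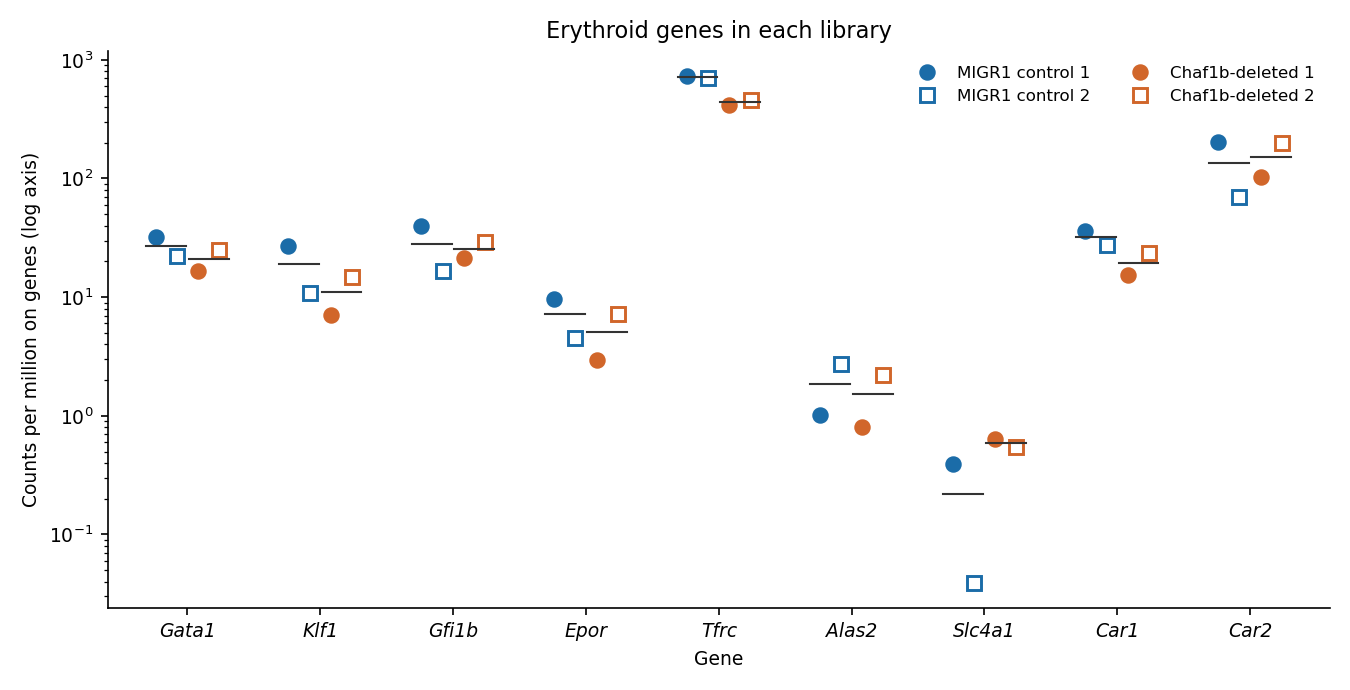
Level of each erythroid gene in each library, in CPM on a log axis; filled circles are replicate 1 and open squares replicate 2, and lines mark group means. Tfrc and Car1 are lower in both Chaf1b-deleted libraries, Slc4a1 is under 1 CPM everywhere, and Klf1, Epor and Car2 differ more between replicates than between groups.

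Besides the 9 genes, 7 wider lists of erythroid genes were examined, for globins, haem synthesis, iron handling, the red cell membrane, transcription partners, erythropoietin signalling and late maturation. Of 107 genes matched, 98 were tested and 0 were called in edgeR's quasi-likelihood test. Without adjustment, 10 had p under 0.05 with higher values, against 9.15% of all genes, and 3 with lower ones, against 3.10%. Differences were above 0 for 56 and below 0 for 42, with a median of 0.08 against -0.03 over all genes. Both deleted libraries exceeded both controls for 24, against 22.3% of all genes, and were below them for 14, against 21.4%. In edgeR's exact test 3 genes were called higher (Fth1, Socs2 and Irs2) and 1 lower (Alas1), as they were in the likelihood ratio test, and DESeq2 added Socs1 and Ube2l6 to the higher genes. Of all genes the exact test called 3.48% in either direction, the likelihood ratio test 3.78% and DESeq2 3.05%.

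Per length of transcript the 9 genes covered a wide range. Tfrc had the highest level, with a mean of 93.5 CPM per kilobase of exon over the 4 libraries (SD 26.5), followed by Car2 with 80.5 (SD 38.1). These neighbours did not differ beyond their spread. Car1 came next with 21.7, then Gfi1b with 14.6, Gata1 with 9.84 and Klf1 with 9.78. Their SDs were 7.34, 5.45, 2.67 and 5.69. Neighbours in this order, Car1 and Gfi1b included, differed by less than the larger of their SDs. Epor had 3.34, Alas2 0.703 and Slc4a1 0.0825 CPM per kilobase. Slc4a1 alone came near the limit of counting. A share of 3 counts, the most that a count of 0 allows, was between 0.118 and 0.162 CPM in these libraries.

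Of the transcription factors, Gata1 (ENSMUSG00000031162, chrX:7536386-7555197 on mm9, minus strand) had 32.2 and 22.0 CPM in the controls and 16.6 and 25.1 CPM after deletion. MIGR1 control replicate 1 was the highest and Chaf1b-deleted replicate 1 the lowest, and the groups overlapped because Chaf1b-deleted replicate 2 exceeded MIGR1 control replicate 2. The log2 difference was -0.38 (standard error 0.28, adjusted p = 0.660 in edgeR's quasi-likelihood test), and without MIGR1 control replicate 1 it was -0.07.

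Klf1 (ENSMUSG00000054191, chr8:87425827-87429194 on mm9, plus strand) had 27.2 CPM in MIGR1 control replicate 1 (95% Wilson interval 25.2 to 29.5) and 10.9 CPM in replicate 2 (9.65 to 12.2). After deletion it had 7.14 CPM in replicate 1 (6.14 to 8.30) and 14.8 CPM in replicate 2 (13.1 to 16.6). All 4 intervals, which cover counting error only, are separate, so the spread within each group was larger than counting can give. The controls differed 2.51-fold from each other, more than the ratio of group means (0.576 deleted over control). The log2 difference of -0.81 had a standard error of 0.48 and an adjusted p of 0.560 in edgeR's quasi-likelihood test. Without MIGR1 control replicate 1 it was 0.0087, and without MIGR1 control replicate 2 it was -1.34 (adjusted p = 0.0571, the lowest for any of the 9 genes in any alternative run, within a range of 0.0571 to 1 for Klf1).

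Gfi1b (ENSMUSG00000026815, chr2:28464970-28477502 on mm9, minus strand) had 39.5 and 16.7 CPM in the controls and 21.5 and 29.3 CPM after deletion. Both deleted libraries lay between the controls. Its log2 difference of -0.14 (standard error 0.39) turned to 0.62 without MIGR1 control replicate 1 and was -0.64 without MIGR1 control replicate 2.

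Epor (ENSMUSG00000006235, chr9:21763343-21768020 on mm9, minus strand) had 9.72 and 4.57 CPM in the controls and 2.97 and 7.2 CPM after deletion. By TMM-normalized CPM the libraries had the same order as for Gata1 and Klf1, from MIGR1 control replicate 1 through Chaf1b-deleted replicate 2 and MIGR1 control replicate 2 to Chaf1b-deleted replicate 1. That order was found for 3.62% of all genes tested. The log2 difference was -0.51 (standard error 0.52, adjusted p = 0.760 in edgeR's quasi-likelihood test) and changed sign to 0.14 without MIGR1 control replicate 1.

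Gata1, Klf1 and Epor ordered the libraries alike, and their promoters are shown for that reason, each as 300 bases around the RefSeq start in the GRCm38.p6 assembly, read on the gene's strand. RefSeq's promoter table held 6 of the 9 genes, and Slc4a1, Car1 and Car2 had no entry. Capitals mark matches, on both strands, to the GATA motif (the letters GATA with A or T before them and A or G after them) or to the CACCC-like motif CCNCNCCC, which KLF proteins are known to bind. Overlapping matches run together.
Gata1 (chrX:7967861-7968160, minus strand): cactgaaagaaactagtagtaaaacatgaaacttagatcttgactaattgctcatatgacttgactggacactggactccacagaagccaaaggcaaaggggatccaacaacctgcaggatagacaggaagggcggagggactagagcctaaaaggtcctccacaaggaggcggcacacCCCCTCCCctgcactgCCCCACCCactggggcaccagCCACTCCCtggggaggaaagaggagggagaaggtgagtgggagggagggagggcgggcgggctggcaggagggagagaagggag
Klf1 (chr8:84901732-84902031, plus strand): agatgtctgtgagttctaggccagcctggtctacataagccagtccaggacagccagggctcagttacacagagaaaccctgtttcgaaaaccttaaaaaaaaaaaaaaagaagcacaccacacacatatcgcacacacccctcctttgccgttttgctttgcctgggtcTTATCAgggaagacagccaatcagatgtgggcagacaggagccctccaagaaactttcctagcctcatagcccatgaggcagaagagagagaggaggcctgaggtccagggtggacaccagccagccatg
Epor (chr9:21963527-21963826, minus strand): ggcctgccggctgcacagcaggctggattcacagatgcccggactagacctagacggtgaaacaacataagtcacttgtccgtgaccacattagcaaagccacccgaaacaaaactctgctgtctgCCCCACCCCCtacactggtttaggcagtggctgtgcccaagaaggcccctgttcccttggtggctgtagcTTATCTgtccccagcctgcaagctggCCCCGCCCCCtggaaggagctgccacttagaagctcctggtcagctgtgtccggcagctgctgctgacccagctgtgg

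The Klf1 window had 1 GATA match, on the opposite strand 80 bases before the start, and no match to CCNCNCCC. The plain letters CACCC do occur in it. The Epor window had 1 GATA match and 4 CACCC-like matches in 2 runs, and the Gata1 window had 3 CACCC-like matches and no GATA match. Among 32851 mouse promoter windows of the same length, 29.8% held a GATA match, 49.5% a CACCC-like match and 10.2% both. A match is a description of the letters in the window.

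Tfrc (ENSMUSG00000022797, chr16:32609006-32632880 on mm9, plus strand) had the most counts of the 9 genes, with 16596 and 17984 counts in the controls and 9791 and 8477 after deletion. In CPM the controls had 730 (95% Wilson interval 719 to 741) and 708 (697 to 718). After deletion the levels were 416 (408 to 424) and 459 (449 to 469). The replicates lay close together in each group, at 1.03-fold and 1.10-fold of each other, and both deleted libraries were low. The log2 difference was -0.69 with a standard error of 0.22, and it failed the threshold after adjustment over all genes (adjusted p = 0.266 in edgeR's quasi-likelihood test). With each library left out in turn the difference stayed between -0.73 and -0.65, and the adjusted p over the alternatives ran from 0.0656 with DESeq2 to 0.959.

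Tfrc transcripts are known to be stabilised in iron-poor cells through hairpins in the 3′ UTR, the iron-responsive elements, while the same element in the 5′ UTR of ferritin, ferroportin and Alas2 transcripts blocks translation. These sites are shown because Tfrc and the ferritin gene Fth1, which share the element, had differences of opposite sign. The search took an unpaired C, 5 paired bases, the 6-base loop that starts with CAGTG and ends in A, C or T, and the returning strand, with G-U pairs allowed. Of 22754 protein-coding genes, 205 had a match anywhere in a transcript, and 9 had one in a UTR with at least 5 of 6 further stem pairs, Tfrc, Alas2, Ftl1 and Slc40a1 among them. The Fth1 match had 4 such pairs. Each sequence below has 29 bases of the transcript, with the loop in capitals and positions on NCBIM37, the Ensembl name of mm9.
Tfrc site 1 (3′ UTR, chr16:32631305-32631333, plus strand): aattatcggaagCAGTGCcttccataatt
Tfrc site 2 (3′ UTR, chr16:32631684-32631712, plus strand): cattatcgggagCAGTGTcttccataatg
Tfrc site 3 (3′ UTR, chr16:32631749-32631777, plus strand): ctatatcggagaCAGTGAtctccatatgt
Tfrc site 4 (3′ UTR, chr16:32631796-32631824, plus strand): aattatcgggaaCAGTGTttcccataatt
Alas2 (5′ UTR, from chrX:146982001 over an exon junction to chrX:146986692, plus strand): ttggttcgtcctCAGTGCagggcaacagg
Fth1 (5′ UTR, chr19:10057222-10057250, plus strand): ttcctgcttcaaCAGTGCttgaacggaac
Ftl1 (5′ UTR, chr7:52715149-52715177, minus strand): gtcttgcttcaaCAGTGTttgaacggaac
Slc40a1 (5′ UTR, chr1:45982310-45982338, minus strand): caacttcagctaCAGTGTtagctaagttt

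Fth1, the ferritin heavy chain that stores iron, had 382 and 404 CPM in the controls and 834 and 753 CPM after deletion, the reverse of Tfrc. Its log2 difference of 1.05 (standard error 0.24) missed the threshold in edgeR's quasi-likelihood test (adjusted p = 0.141), and passed it in the exact test, the likelihood ratio test, DESeq2, without a low-count filter and without Chaf1b-deleted replicate 2. Ftl1, the light chain, had 338 and 334 CPM in the controls and 424 and 294 CPM after deletion, where the deleted libraries lay on either side of the controls. Of the 31-base stretches of Ftl1 transcripts, 81.8% also occur in other protein-coding genes, so its counts are uncertain, and pseudogene copies of either ferritin gene were not searched. Slc40a1, the iron exporter ferroportin, had 128 and 150 CPM in the controls and 168 and 151 CPM after deletion. The transcripts with an iron-responsive element thus had differences of either sign, and the iron content of the cells was not measured here.

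Over the 16 genes of iron uptake and handling other than Tfrc, 15 passed the low-count filter and 0 were called in edgeR's quasi-likelihood test. The other tests called 1, Fth1, and of all genes they called 3.05% to 3.78% in either direction. Fth1 alone had an unadjusted p under 0.05 and was higher, where all genes gave 9.15%. Both deleted libraries lay above both controls for 3 of the 15 and below for 4, against 22.3% and 21.4% of all genes, and the median log2 difference was 0.10. The largest decrease was in Steap3, the endosomal ferrireductase that acts after transferrin uptake, at 45.5 and 21.7 CPM in the controls and 15 and 24.6 CPM after deletion (log2 difference -0.76, adjusted p = 0.481 in the same test). Among genes picked after their values were seen, Slc11a2, which carries iron out of the endosome, was lower in both deleted libraries (14.2 and 19.4 CPM against 28.6 and 21.1 CPM), whereas Trfr2, the annotation's name for transferrin receptor 2, overlapped between groups.

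**Figure D2:**
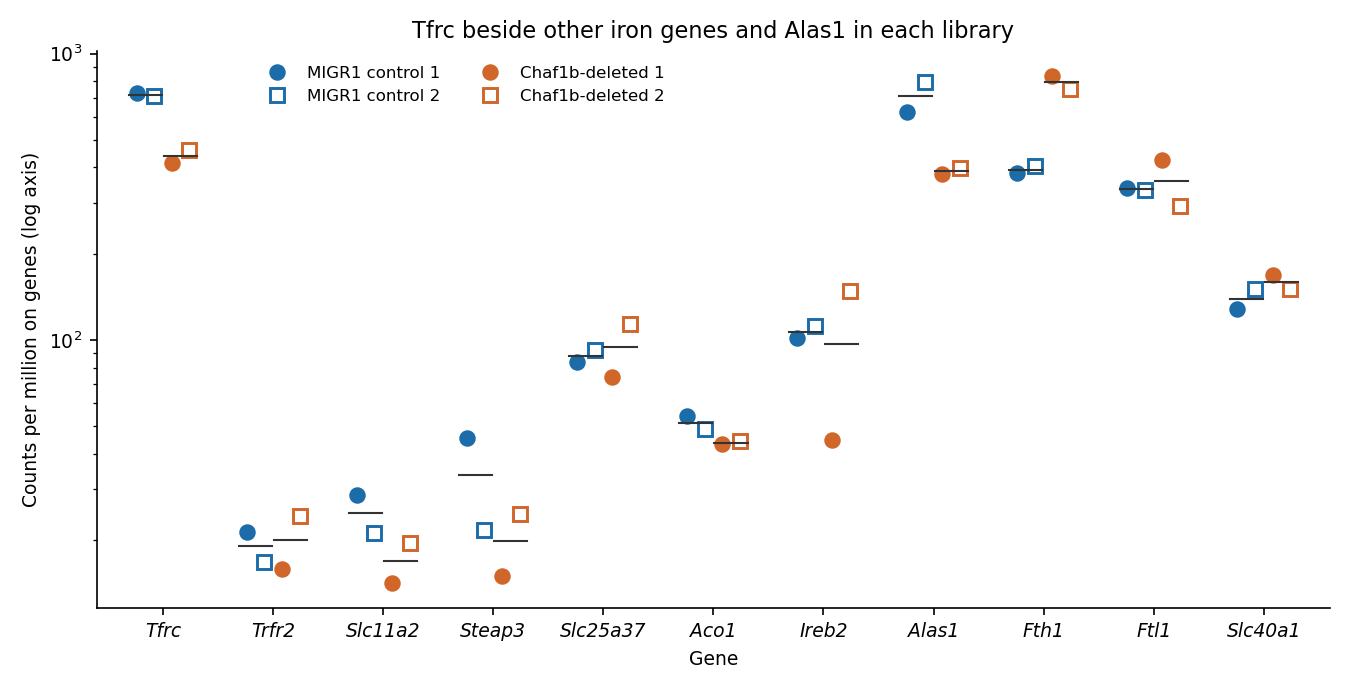
Level of Tfrc, other iron genes and Alas1 in each library, in CPM on a log axis; filled circles are replicate 1, open squares replicate 2, and lines group means. Tfrc and Alas1 are low and Fth1 is high in both Chaf1b-deleted libraries, while Ireb2 differs mainly between the deleted replicates.

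Dividing cells take up iron through Tfrc, so proliferation genes were read beside it. Of 13 listed genes, 10 had both deleted libraries below both controls, against 21.4% of all genes, although 0 were called in edgeR's quasi-likelihood test. Mki67 alone had an unadjusted p under 0.05 and was lower, against 3.10% of all genes. It was also the 1 gene that the other tests called, against 3.05% to 3.78% of all genes in either direction. The summed level of the 13 genes was 7187 and 7203 CPM in the controls and 4054 and 4846 CPM after deletion. Their median log2 difference was -0.43. The most abundant was Mki67, the marker of cycling cells, whose log2 difference was -1.10. The part of proliferation in the Tfrc difference was not tested.

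Alas2 (ENSMUSG00000025270, chrX:146981918-147005181 on mm9, plus strand), the erythroid form of the first haem enzyme, had only 23 and 69 counts in the controls and 19 and 41 after deletion. In CPM these were 1.01 (95% Wilson interval 0.674 to 1.52) and 2.72 (2.15 to 3.44) against 0.807 (0.517 to 1.26) and 2.22 (1.64 to 3.01). Both replicates numbered 2 were high and both numbered 1 low, whatever the group. The log2 difference of -0.32 had a standard error of 0.66. It became 0.54 without MIGR1 control replicate 2 and 0.17 without Chaf1b-deleted replicate 1. The gene overlaps Apex2 on the opposite strand, which had up to 467 counts, and since the strand setting of the counting is not given in the sources used here, reads of the pair may not have been told apart.

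Alas1, the form of the same enzyme used outside the erythroid lineage, was the most abundant of the 8 other haem synthesis enzymes, at 128 CPM per kilobase against 0.703 for Alas2. It had 626 and 796 CPM in the controls and 379 and 399 CPM after deletion, so both deleted libraries were low. The log2 difference was -0.84 (standard error 0.24, adjusted p = 0.213 in edgeR's quasi-likelihood test), and it was called lower in the exact test, the likelihood ratio test and DESeq2, and in no other alternative run. None of the 8 enzymes was called in edgeR's quasi-likelihood test. Alas1 alone had an unadjusted p under 0.05 and was lower, against 3.10% of all genes. Both deleted libraries lay below both controls for 2 of the 8 and above them for 0, against 21.4% and 22.3% of all genes. Cpox (90.8 and 53.1 against 52.8 and 66.2 CPM), which acts late in the pathway, overlapped between groups. The median log2 difference was -0.08, and Alad, which makes porphobilinogen, had the largest increase at 0.29.

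Slc4a1 (ENSMUSG00000006574, chr11:102210138-102227517 on mm9, minus strand) had 9 and 1 counts in the controls and 15 and 10 after deletion. These were 0.396 CPM (95% Wilson interval 0.208 to 0.752) and 0.0394 CPM (0.00695 to 0.223) against 0.637 CPM (0.386 to 1.05) and 0.541 CPM (0.294 to 0.997). Both deleted libraries were above both controls, yet their intervals include the value of MIGR1 control replicate 1. The gene passed the low-count filter only through the deleted libraries, which favours such a position and a difference above 0. The fitted log2 difference of 1.48 (standard error 0.94, adjusted p = 0.590 in edgeR's quasi-likelihood test) was the largest of the 9 genes in size and rests on few counts. It ran from 0.59 without MIGR1 control replicate 2 to 3.77 without replicate 1.

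The carbonic anhydrase genes Car1 and Car2 lie near each other on chromosome 3 but differed in pattern. Car1 (ENSMUSG00000027556, chr3:14766217-14778459 on mm9, minus strand) had control levels of 36.1 CPM (95% Wilson interval 33.7 to 38.6) and 27.7 CPM (25.8 to 29.9). After deletion they were 15.3 CPM (13.8 to 17) and 23.4 CPM (21.3 to 25.7). Both deleted libraries were lower than both controls, with a narrow gap between Chaf1b-deleted replicate 2 and MIGR1 control replicate 2. The log2 difference was -0.72 (standard error 0.26, adjusted p = 0.321 in edgeR's quasi-likelihood test), within -0.92 to -0.51 with each library left out.

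Car2 (ENSMUSG00000027562, chr3:14886426-14900769 on mm9, plus strand) had 203 and 70.0 CPM in the controls and 102 and 201 CPM after deletion. MIGR1 control replicate 1 and Chaf1b-deleted replicate 2 were high and the others low, so that the controls alone differed 2.90-fold. The log2 difference of 0.14 (standard error 0.48) turned to -0.44 without MIGR1 control replicate 2 and to -0.27 without Chaf1b-deleted replicate 2, and was 1.11 without MIGR1 control replicate 1. Car3 (chr3:14863538-14872351) and Car13 (chr3:14641727-14663002), members of the same cluster named after their values were seen, also had MIGR1 control replicate 2 as the lowest library, with 0.708 CPM for Car3 and 9.01 CPM for Car13.

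Of the 16 carbonic anhydrase genes, Car1 and Car2 included, 12 passed the low-count filter and 0 were called in edgeR's quasi-likelihood test. Car4 was called higher by the other tests, which called 3.05% to 3.78% of all genes in either direction. Without adjustment, 2 had p under 0.05 with higher values and 3 with lower ones, against 9.15% and 3.10% of all genes. Both deleted libraries exceeded both controls for 4 of the 12 and were below them for 3, against 22.3% and 21.4% of all genes, and the median log2 difference was 0.16. Car4, a membrane-anchored enzyme named after its values were seen, came nearest to the threshold, with 3.83 and 4.41 CPM in the controls and 15 and 14.5 CPM after deletion (log2 difference 1.87, adjusted p = 0.0702 in the same test).

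**Figure D3:**
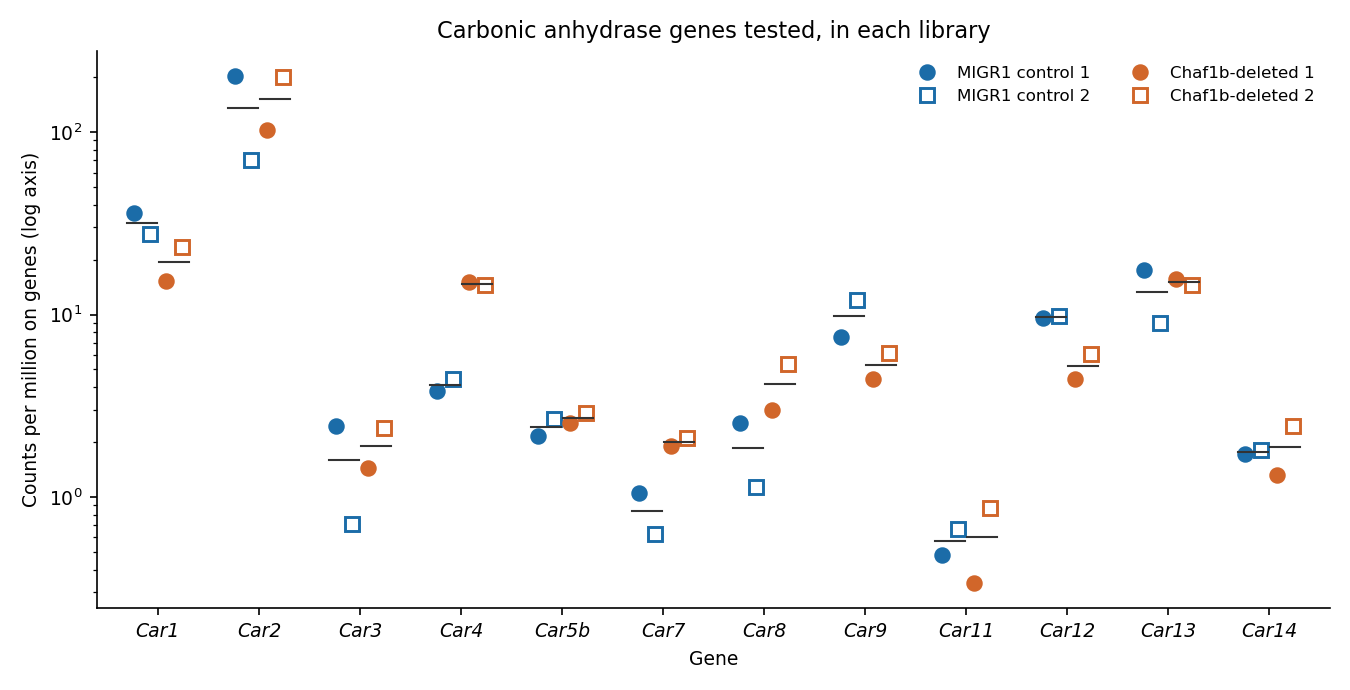
Level of the 12 carbonic anhydrase genes tested in each library, in CPM on a log axis; filled circles are replicate 1, open squares replicate 2, and lines group means. Car1 is lower and Car4 higher in both Chaf1b-deleted libraries, whereas Car2 and Car3 are high in MIGR1 control replicate 1 and Chaf1b-deleted replicate 2.

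By TMM-normalized CPM, MIGR1 control replicate 1 was the highest library for 7 of the 9, against 27.9% of all genes tested, and Chaf1b-deleted replicate 1 the lowest for 5, against 31.5%. For 4 genes, Gata1, Klf1, Epor and Car1, both held, as they did for 13 of the 98 genes tested from the wider lists and for 10.3% of all genes. The median profile of the 9 genes, as log2 CPM around each gene's mean, stood at 0.56 and -0.30 in the controls and at -0.38 and 0.12 after deletion. Without Tfrc, the summed level of the other 8 genes was 349 and 155 CPM in the controls and 167 and 303 CPM after deletion. Car2 alone gave 203 and 70.0 CPM of it in the controls and 102 and 201 CPM after deletion, so the sum largely repeats the values of Car2.

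The wider list for the red cell membrane and skeleton held 20 genes. Of the 19 tested, by TMM-normalized CPM, MIGR1 control replicate 1 was highest for 10 and Chaf1b-deleted replicate 2 for 8. Over all genes tested, those libraries were highest for 27.9% and 25.6%. MIGR1 control replicate 2 was lowest for 10 and Chaf1b-deleted replicate 1 for 8, against 21.9% and 31.5% of all genes. None of the 19 was called in edgeR's quasi-likelihood test or the other tests, and their median log2 difference was -0.13. Only Ermap had an unadjusted p under 0.05 and was lower, against 3.10% of all genes. The largest decrease was in Ermap, an erythroid membrane protein, at 23.8 and 10.1 CPM in the controls and 3.74 and 10.2 CPM after deletion (log2 difference -1.30, adjusted p = 0.378 in the same test). Ermap was high in MIGR1 control replicate 1 and low in Chaf1b-deleted replicate 1, and it was called lower without MIGR1 control replicate 2 and without a low-count filter, and in no other alternative run. Genes singled out after their values were seen had the same high library, such as Spna1, the alpha spectrin (37.7 and 12.5 against 5.44 and 17.1 CPM), which was called lower in the same 2 alternatives as Ermap, and Kel, a blood group antigen (13.5 and 2.44 against 3.23 and 9.96 CPM). Slc2a1, the glucose transporter and the most abundant of the list per kilobase, and Epb4.1 and Gypc, the next by level, varied less, and Cd59a had the largest increase (log2 difference 0.88). Icam4 had no count in any library.

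C1qa, a complement gene made by macrophages and picked with C1qb and C1qc after their values were seen, had 0.660 CPM in MIGR1 control replicate 1 and 23.2 in replicate 2, against 10.6 and 0.433 CPM in Chaf1b-deleted replicates 1 and 2. C1qb and C1qc were likewise high in MIGR1 control replicate 2 and Chaf1b-deleted replicate 1, the libraries with less Klf1, Epor and Car2. Cx3cr1 of the same list, also picked after its values were seen, had 4.71 and 2.28 CPM in the controls and 7.99 and 9.75 CPM after deletion. Of the 16 matched monocyte and macrophage genes, the C1q genes included, 15 were tested and 0 called in edgeR's quasi-likelihood test or the other tests, with 2 higher and 0 lower at p under 0.05 without adjustment, against 9.15% and 3.10% of all genes, and a median log2 difference of -0.17. None of the 16 was at 0 in all libraries, and the summed level was 1064 and 2124 CPM in the controls and 2204 and 1177 CPM after deletion. Ly6c2 was the most abundant. The part of such cells in the levels of erythroid genes was not tested.

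**Figure D4:**
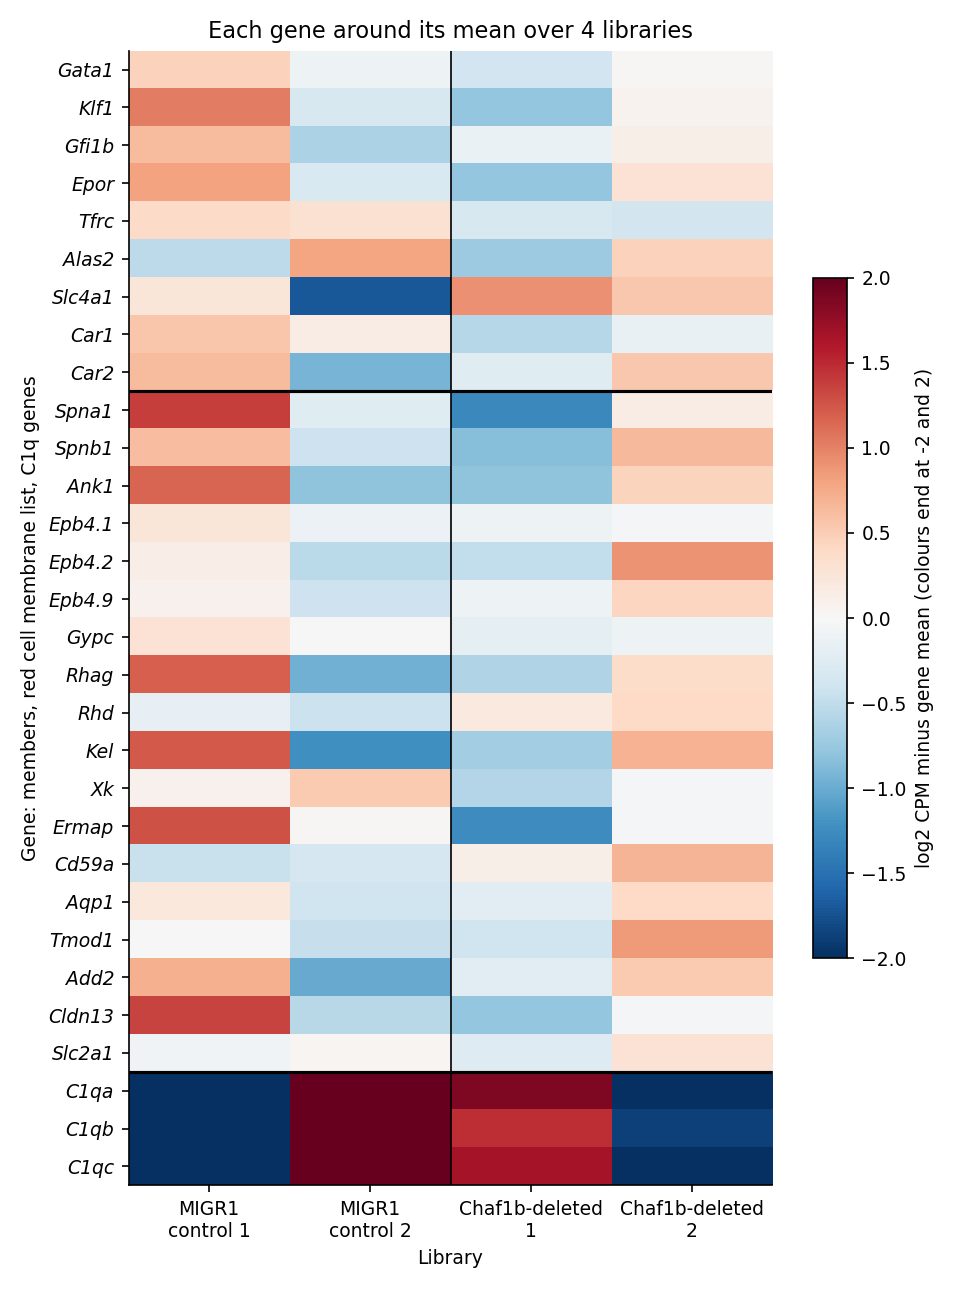
Log2 CPM of each gene around its own mean over the 4 libraries, from blue (low) to red (high), for the 9 erythroid genes, genes of the red cell membrane list and the C1q genes. MIGR1 control replicate 1 is red for most erythroid genes, and the C1q genes are high in MIGR1 control replicate 2 and Chaf1b-deleted replicate 1.

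By root mean square difference of centred log2 CPM over the 4 libraries, the genes nearest to the median profile of the 9 were Fam158a (0.0158), the unnamed ENSMUSG00000103749 (0.0175) and Gm13421 (0.0325). Nearest to Slc4a1, the gene with the largest difference in size, were Col2a1 (0.113), Kctd14 (0.114) and Ddit4l (0.118). Among the 9 genes, Klf1 and Epor were nearest to each other (0.159), as were Gata1 and Car1 (0.188), and Gfi1b and Car2 (0.261).

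The globins are the final product of the programme. Hbb-b2 had 349 and 302 counts in the controls and 290 and 330 after deletion, or 15.3 and 11.9 against 12.3 and 17.9 CPM. Hbb-b1 had 86 and 184 against 238 and 56 counts, high in the libraries that were also high in C1q transcripts. Hba-a1 had 16 and 15 counts in the controls and 60 and 34 after deletion, higher in both deleted libraries (log2 difference 1.80, standard error 0.54, adjusted p = 0.229 in edgeR's quasi-likelihood test). Hba-a2 had 3 and 7 against 16 and 3 counts. Of the 31-base stretches of these transcripts, 72.5% in Hba-a1, 91.0% in Hba-a2, 50.3% in Hbb-b1 and 59.4% in Hbb-b2 also occur in other genes, so the division of counts within each pair is uncertain. Among the embryonic chains, Hbb-bh1, Hbb-bh2 and Hbb-y had at most 2 counts in a library and Hba-x had none. Of the 8 globin genes matched, 3 passed the low-count filter and 0 were called in edgeR's quasi-likelihood test, and the other tests also called 0. Hba-a1 alone had an unadjusted p under 0.05 and was higher, against 9.15% of all genes. All 3 log2 differences were above 0, with a median of 0.34. Hba-a1 was called higher without a low-count filter and in no other alternative run.

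The 23 genes listed as erythroid transcription partners were measured in all libraries. None was called in edgeR's quasi-likelihood test or the other tests, and without adjustment 3 had p under 0.05 with higher values and 1 with lower ones, where all genes gave 9.15% and 3.10%. Both deleted libraries exceeded both controls for 9 of 23, against 22.3% of all genes, and were below them for 1, against 21.4%. The 1 lower gene was Myb, a factor of immature progenitors and the most abundant of the list per kilobase, at 475 and 492 CPM in the controls and 298 and 334 CPM after deletion (log2 difference -0.59, standard error 0.21, adjusted p = 0.313 in the same test). Nfe2 (270 and 278 against 302 and 261 CPM) overlapped between groups. Ikzf1, the lymphoid and myeloid factor Ikaros, had 381 and 380 CPM in the controls and 439 and 484 CPM after deletion. The largest increase was in Cbfa2t3, the ETO2 corepressor of GATA1 complexes, at 40.6 and 29.4 CPM in the controls and 45.7 and 80.8 CPM after deletion (log2 difference 0.85, adjusted p = 0.279 in the same test). The median log2 difference was 0.18.

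Among the 14 genes of erythropoietin signalling, which also serve the receptors for SCF and IL-3, 0 were called in edgeR's quasi-likelihood test, while the exact and likelihood ratio tests called 2 and DESeq2 3, against 3.48%, 3.78% and 3.05% of all genes in either direction. Without adjustment 4 had p under 0.05, all with higher values, as did 9.15% of all genes. The median log2 difference was 0.21, and both deleted libraries exceeded both controls for 6 of 14, against 22.3% of all genes. Socs1, a feedback inhibitor that interferon also induces, had the largest increase, at 10.8 and 10.5 CPM in the controls and 31 and 18.2 CPM after deletion (log2 difference 1.26, adjusted p = 0.203 in the same test), highest in the library with high interferon-stimulated genes. Socs2, another STAT5 target, named after its values were seen, had 16.4 and 13.9 CPM in the controls and 36.6 and 33.5 CPM after deletion. Its log2 difference of 1.24 had an adjusted p of 0.101 in the same test, and it was called in the 3 other tests, without a low-count filter and without Chaf1b-deleted replicate 2. Pim1, the most abundant of the list per kilobase, had the largest decrease (log2 difference -0.62), with 287 and 495 CPM in the controls and 268 and 228 CPM after deletion. Its controls differed more from each other than MIGR1 control replicate 1 did from the deleted libraries. Ptpn6 and Jak2, the kinase bound to the receptor, overlapped between groups.

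The 18 genes of late red cell maturation, which include enzymes and organelle-clearance factors, gave no call among the 16 tested in edgeR's quasi-likelihood test, with a median log2 difference of -0.01. Ube2l6 alone had an unadjusted p under 0.05 and was higher, against 9.15% of all genes. Of the other tests DESeq2 alone, which called 3.05% of all genes in either direction, called it. It was also called higher without a low-count filter and without MIGR1 control replicate 1, MIGR1 control replicate 2 or Chaf1b-deleted replicate 2. It is a conjugating enzyme for ISG15 and itself interferon-induced, and had 8.18 and 12.2 CPM in the controls and 51.9 and 14.7 CPM after deletion (log2 difference 1.79, adjusted p = 0.267 in edgeR's quasi-likelihood test). Its level was set apart by Chaf1b-deleted replicate 1, as for the interferon-stimulated genes. Catalase (Cat), the most abundant per kilobase, had 161 and 159 CPM in the controls and 114 and 117 CPM after deletion. Bnip3l, which clears mitochondria, and Blvrb overlapped between groups, and the largest decrease was in Pklr, the red cell pyruvate kinase, at 4.27 and 1.93 CPM in the controls and 1.06 and 2.27 CPM after deletion (log2 difference -0.91).

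**Figure D5:**
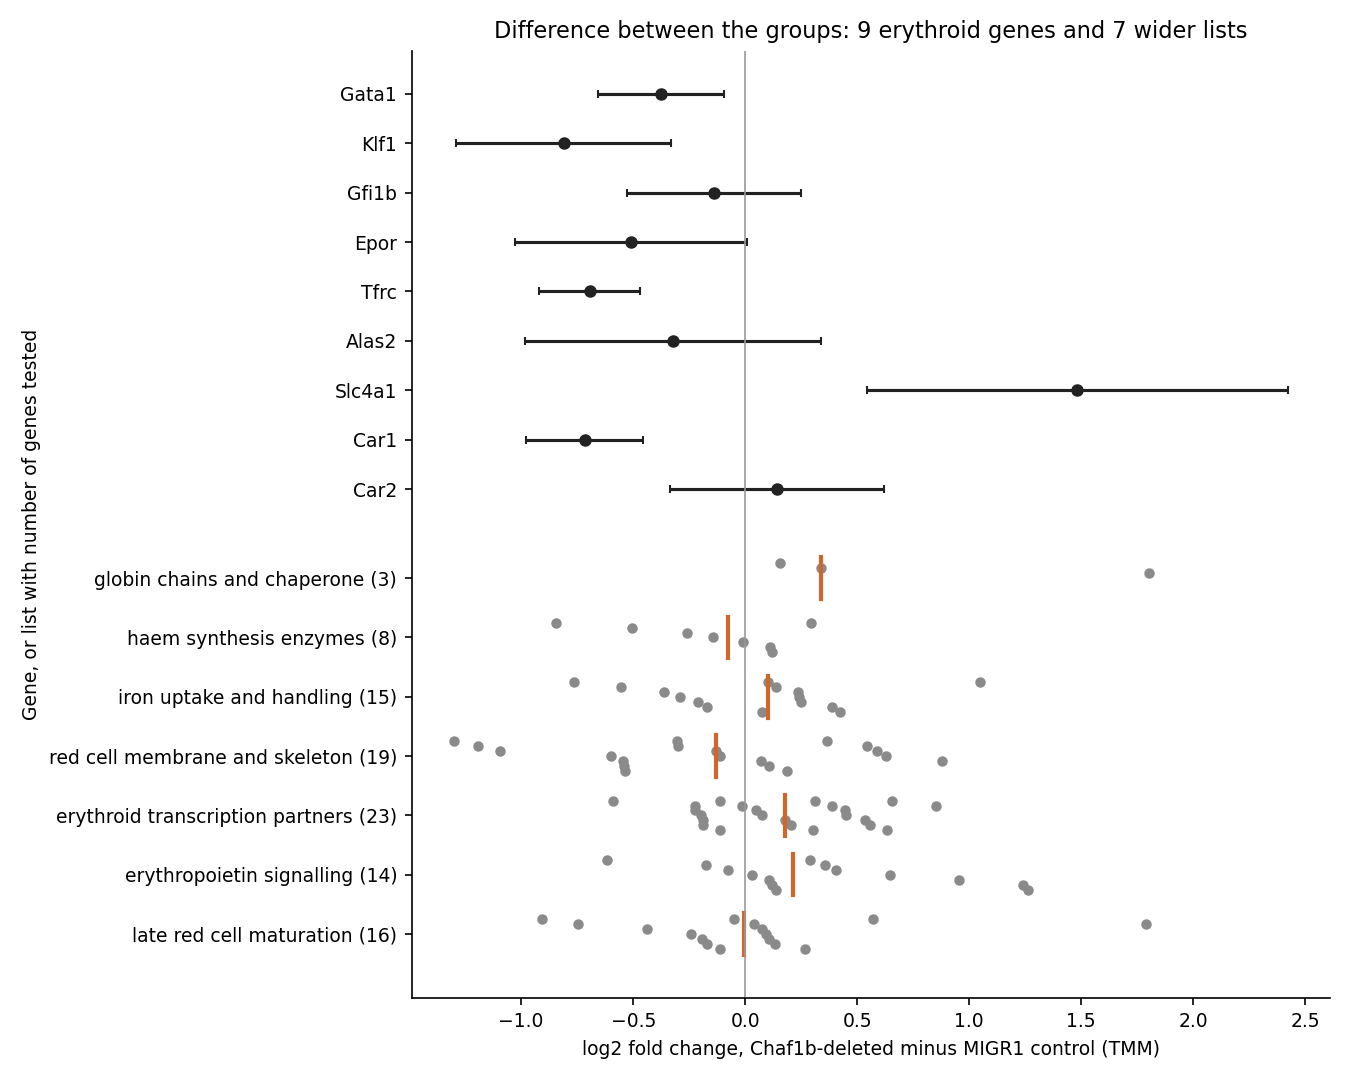
Log2 fold change, Chaf1b-deleted minus MIGR1 control, of the 9 erythroid genes (black points with standard errors) and of each tested gene in 7 wider erythroid lists (grey points, orange bars at the medians). The list medians lie between -0.13 and 0.34, and the differences of Tfrc and Car1 have the shortest error bars relative to their size.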

How the data were processed

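The authors aligned reads of stranded, ribosome-depleted total RNA libraries to mm9 with STAR and assigned them to genes with HTSeq-count. What was deposited is a table of raw counts for each library. The annotation release and strand setting are not given in the sources used here. Of the 43629 identifiers, 33068 were named from the NCBIM37 annotation, and between 35.8% and 48.3% of a library's reads counted on genes, outside genes or as ambiguous were outside genes and left out. The symbols Hbb-bt, Hbb-bs and Ahsp had no match.

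From the counts, CPM were taken over the total on genes. The groups were compared with edgeR 4.0.16 in R 4.3.3, with TMM normalization (factors 0.93 to 1.06), a low-count filter with a minimum count of 10, and glmQLFit and glmQLFTest without a covariate (common dispersion 0.0763, prior degrees of freedom 5.68). Genes were called at 1.5-fold or more and a Benjamini-Hochberg adjusted p under 0.05 over all genes tested. Whether groups overlap and the order of libraries were read from TMM-normalized CPM. The method was tested on simulated data.

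The members and lists were chosen with earlier results of these data known. Named genes were the 9 members, Chaf1b and Chaf1a, called genes of the lists, the 3 genes with the highest level per kilobase and the largest increase and decrease of each wider list, globins, Xist and Y-linked genes, and the most abundant gene and the markers at 0 of each other cell type. Other genes were named after their values were seen: Slc11a2, Trfr2, Ireb2, Spna1, Kel, the C1q genes, Cx3cr1, Car3, Car4, Car13, Socs2, Irs2, Flt3, Cxcr2 and genes called only by other tests. TMM was replaced by DESeq2's size factors or by plain library size, the filter by none or by 10 counts per library, and the test by the exact or likelihood ratio test of edgeR or by DESeq2 1.42.0. The replicate number was also fitted as a block, and each library was left out. Some listed genes are not reported here by name. Wilson intervals at 95% and the floor of 3 counts cover counting error only.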

Additional observations from a re-analysis of the deposited data

How the results depend on the processing

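Under the 12 alternatives, 0 of the 9 erythroid genes were called, and of the 107 values this gave for single genes 100 kept their direction. Slc4a1 could not be tested with at least 10 counts in every library, and DESeq2 gave it no adjusted p. The 7 that changed sign came from leaving out a library. With each left out in turn, the log2 difference ran from -1.34 to 0.0087 for Klf1, from -0.643 to 0.619 for Gfi1b and from -1.12 to 0.144 for Epor, each above 0 without MIGR1 control replicate 1. It ran from -1.07 to 0.537 for Alas2, above 0 without MIGR1 control replicate 2 and, at 0.17, without Chaf1b-deleted replicate 1. For Car2 it ran from -0.443 to 1.11, below 0 without MIGR1 control replicate 2 and, at -0.271, without Chaf1b-deleted replicate 2. Gata1, Tfrc, Slc4a1 and Car1 kept their direction in every alternative run. Fits without a library leave 1 library in a group, which is assumed to vary like the others.

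Over all genes, 61 were called higher and 1 lower. The numbers were 27 higher with DESeq2's size factors, 30 higher with library size only, 808 and 79 without a low-count filter, 3 and 0 with at least 10 counts in every library, 537 and 37 in edgeR's exact test, 583 and 40 in its likelihood ratio test, and 471 and 32 with DESeq2. With each library left out they ran from 125 to 331 higher and from 6 to 42 lower. Of the wider erythroid genes, where 0 were called, 6 were higher and 2 lower without a low-count filter, 3 and 1 in the exact test, 3 and 1 in the likelihood ratio test, and 5 and 1 with DESeq2, and from 0 to 4 higher and from 0 to 2 lower with a library left out. The cause was not tested.

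The replicate numbers are not shown to pair the libraries. Over the genes tested, deviations from the group means had a correlation of 0.0133 between the libraries numbered 1. With 2 libraries a group, those numbered 2 mirror them and give the same value. With the replicate block, 14 genes were called higher and 0 lower, and 0 erythroid genes. Chaf1b was not called with the block (adjusted p = 0.0592, log2 difference -1.98) or with at least 10 counts in every library, and over its alternatives the adjusted p ran from 1.7e-09 to 0.0651. The biological coefficient of variation was 0.276 with 2 libraries a group.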

Other observations

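The labelled cell type was checked against other lineages. Of 11 stem and progenitor genes, all were tested and Flt3 alone was called higher in edgeR's quasi-likelihood test, while the other tests also called Procr, with a median log2 difference of 0.31 and a summed level of 468 and 418 CPM in the controls and 439 and 558 CPM after deletion. Gata2, the partner that precedes GATA1 in erythroid cells, was the most abundant per kilobase, at 193 and 130 CPM in the controls and 106 and 171 CPM after deletion. Neutrophil-lineage transcripts were far more abundant than erythroid ones. The 15 genes summed to 53340 and 60570 CPM in the controls and 73560 and 54460 CPM after deletion, S100a9 was the highest, and Cxcr2 alone was called higher in that test, where the median log2 difference was 0.07. The exact and likelihood ratio tests also called Mmp8 and Mmp9 higher, and DESeq2 those and Ltf. Over all genes tested, 0.370% were called higher in the quasi-likelihood test, while the exact test called 3.48%, the likelihood ratio test 3.78% and DESeq2 3.05% in either direction.

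The megakaryocyte lineage shares its progenitor with red cells. Of 16 megakaryocyte and platelet genes 15 were tested and 0 called in edgeR's quasi-likelihood test. The other tests called 3 higher, Pf4, Ppbp and Vwf, and 5 had p under 0.05 without adjustment, all with higher values. Over all genes tested, 9.15% had such a p with higher values and 3.10% with lower ones, and the other tests called 3.05% to 3.78%. Both deleted libraries exceeded both controls for 8 of 15, against 22.3% of all genes. The median log2 difference was 0.54, and the summed level was 3051 and 7180 CPM in the controls and 5466 and 4672 CPM after deletion, most of it Thbs1. Mast cell and basophil genes (11 of 15 tested, 0 called, with Tpsb2 higher and Ms4a2 lower without adjustment and in the other tests) had a median of 0.32, with Mcpt8 highest per kilobase and sums of 1361 and 921 against 1223 and 1281 CPM. Eosinophil genes (9 tested, 0 called, 3 lower without adjustment, of which the other tests called Epx and Prg3) had a median of -0.97, with Prg2 highest and sums of 445 and 942 against 358 and 221 CPM. Lymphoid genes (9 of 14 tested, 0 called by any test, 2 higher without adjustment) were sparse, with Cd79b highest, a median of 0.92 and sums of 23.6 and 30.9 against 49.5 and 40.9 CPM. Interferon-stimulated genes (28 tested, 0 called, 25 higher without adjustment, 12 called by the exact test, 15 by the likelihood ratio test and 1 by DESeq2) had a median of 2.64, with Ifi27l2a highest per kilobase and sums of 489 and 511 against 3377 and 613 CPM, Chaf1b-deleted replicate 1 being the high library. No marker of these lists was at 0 in all 4 libraries.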
